A study of Mus musculus with 2 samples.

Results

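The 10 genes of the cytotoxic granule followed here were the granzymes *Gzma*, *Gzmb*, *Gzmc* and *Gzmk*, the pore protein *Prf1*, the granule membrane proteins *Nkg7* and *Lamp1*, the protease inhibitors *Serpinb9* and *Serpinb6b*, and the proteoglycan *Srgn*. They were taken by symbol from the 31053 genes listed in the count matrices, of which 17723 had a count in the cells kept. All 10 genes had a count in the control library and 8 in the NK cell-depleted library, where *Gzma* and *Gzmk* had none. The cells were live CD45+ leukocytes sorted 4 days after melanoma cells were injected into 8 week old C57BL/6 mice, and both groups carried *Ptgs*-deficient tumors driven by mutant *Braf*. Control hosts are labelled untreated. NK cells were depleted in the other hosts with 200 µg of the anti-NK1.1 antibody PK136 and 30 µg of anti-asialo GM1 on days 0 and 2. Tumors of a group were pooled before the sort, each group was 1 library, and parental melanoma cells were added to each sample as a spike-in. The genotype label of both samples reads wild-type tumor cells, whereas the titles and the series design name a knockout, and this conflict was not resolved.

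Cytotoxic granules are secretory lysosomes with which natural killer (NK) cells and killer T cells destroy their targets. Perforin, encoded by *Prf1*, makes pores in the membrane of the target cell, and granzymes enter through them as proteases that start cell death. Inside the granule, granzymes are held on serglycin, the product of *Srgn*, and LAMP-1 lines the granule membrane as it lines lysosomes of most cells. The protein of *Serpinb9* inhibits granzyme B and shields the killer cell and other leukocytes from it, and *Serpinb6b* encodes another intracellular serpin.

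The members lie in part side by side in the genome (GRCm38, the assembly of the submitters' mm10 build, with GENCODE gene models). *Gzmc* (14:56231441-56234656) and *Gzmb* (14:56258838-56262260) were 24181 bases apart on the minus strand of chromosome 14, and *Serpinb6b* (13:32965209-32979067) and *Serpinb9* (13:33003250-33017957) were 24182 bases apart on the plus strand of chromosome 13. *Gzma* (13:113093825-113100981) and *Gzmk* (13:113171608-113225908) shared the minus strand further along that chromosome. Because the libraries read transcript 3' ends, the last 500 bases of each member's longest coding transcript were compared with transcripts of the other family genes. Of the 451 windows of 50 bases in each, 0 were shared for any member, so reads of neighboring granzymes or serpins could be told apart there. The 250 bases before the RefSeq start site are shown for the 3 granzyme genes that could be compared inside NK-like cells (RefSeq, GRCm38.p6, minus strand, 5′ to 3′, capitals mark the matches described next).
Gzma chr13:113100982-113101231: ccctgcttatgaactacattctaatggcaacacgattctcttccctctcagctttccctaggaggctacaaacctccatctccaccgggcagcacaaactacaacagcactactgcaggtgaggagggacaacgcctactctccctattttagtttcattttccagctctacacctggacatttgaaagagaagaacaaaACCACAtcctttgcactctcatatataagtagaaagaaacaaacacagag
Gzmb chr14:56262335-56262584: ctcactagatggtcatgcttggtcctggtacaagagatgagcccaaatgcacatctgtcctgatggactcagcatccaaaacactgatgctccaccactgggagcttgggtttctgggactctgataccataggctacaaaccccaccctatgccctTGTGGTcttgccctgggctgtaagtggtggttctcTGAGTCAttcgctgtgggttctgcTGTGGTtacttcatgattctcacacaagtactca
Gzmc chr14:56234658-56234907: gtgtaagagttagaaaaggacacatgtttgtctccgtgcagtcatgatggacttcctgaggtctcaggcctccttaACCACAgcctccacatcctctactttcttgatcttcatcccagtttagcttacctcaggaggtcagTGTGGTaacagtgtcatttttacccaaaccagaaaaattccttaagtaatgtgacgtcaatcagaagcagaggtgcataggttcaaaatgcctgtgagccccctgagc

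Short motifs of factors known in cytotoxic lymphocytes were searched on both strands of these windows. The RUNX core TGTGGT occurred at least once in 7 of the 10 members, *Gzma*, *Gzmb*, *Gzmc*, *Prf1*, *Nkg7*, *Srgn* and *Lamp1*. It was not found in *Gzmk*, *Serpinb9* or *Serpinb6b*. Of all 32851 promoter windows of that length, 14.0% held it. In *Gzma* the match began 50 bases before the start, in *Gzmb* 93 and 34 bases before it, and in *Gzmc* 174 and 108 bases before it. The AP-1 site TGANTCA was found in *Gzmb* alone among the members, 58 bases before the start, and in 6.75% of all windows. The T-box half-site GGTGTGA occurred in *Nkg7* and *Gzmk* and in 3.33% of all windows. For *Gzmb*, *Prf1* and *Gzmk* the bases just after the RefSeq start were not found in a GENCODE transcript. Distances for these genes thus count from the RefSeq start only. All matches describe letters only, and binding was not measured.

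A UMI (unique molecular identifier) marks 1 transcript molecule. With cells of 200 to 4000 genes, 500 to 15000 UMIs and no more than 10% of them mitochondrial, 5292 of 6115 control cells and 4506 of 5536 NK cell-depleted cells remained, with 24810009 and 23245982 UMIs and medians of 4170 and 4893 UMIs per cell. The libraries shared 5 barcodes among these cells. Clustering without the 10 genes and without the other granule genes gave 19 clusters, and classes were called from marker genes that held none of the members. The NK-like class had 541 control cells, 10.2% of that library, and 1 NK cell-depleted cell. Of the 541 cells, 540 held UMIs of at least 2 NK markers, while *Cd3e* or *Trac*, which define T cells, were found in 14 of them. Among other markers of the T list, *Cd3d* was found in 12 and *Cd3g* in 13 of the 541 cells. *Trbc1* was found in 341, *Cd28* in 168 and *Trbc2* in 113, so T list transcripts were not absent from the class. Levels are UMIs of a gene per 1000000 UMIs of all genes in those cells (CPM). With 1 library per group there was no replicate check and no test. All intervals are 95% intervals, exact Poisson for levels, exact binomial for shares and exact conditional binomial for ratios, and cover counting error only.

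Most transcripts of 7 members lay in NK-like cells, which held 5.41% of all control UMIs. NK-like cells held 93.05% of the 8268 control UMIs of *Gzma* (92.5 to 93.6), 92.7% of the 1565 of *Prf1* (91.2 to 93.9) and 90.6% of the 149 of *Gzmc* (84.7 to 94.8). They held 88.4% of the 2225 *Nkg7* UMIs and 87.0% of the 798 *Gzmb* UMIs. The serpins were less concentrated, with 73.3% of 1722 *Serpinb9* and 72.9% of 1366 *Serpinb6b* UMIs. *Gzmk*, a granzyme typical of memory-like CD8 T cells, had too few UMIs for a call, with 10 of 19 in NK-like cells (52.6%, 28.9 to 75.6). *Srgn* and *Lamp1* stood apart, NK-like cells holding 2.16% of 36665 *Srgn* UMIs and 0.822% of 18726 *Lamp1* UMIs. Thus 7 of the 9 members with at least 20 control UMIs had over 50% of them there, a share that 1.65% of all 11866 genes with as many UMIs reached. Ranked by this share, *Gzma* was gene 11, *Prf1* 15, *Gzmc* 23, *Nkg7* 35, *Gzmb* 41, *Serpinb9* 84 and *Serpinb6b* 86 of 11866.

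**Figure D1:**
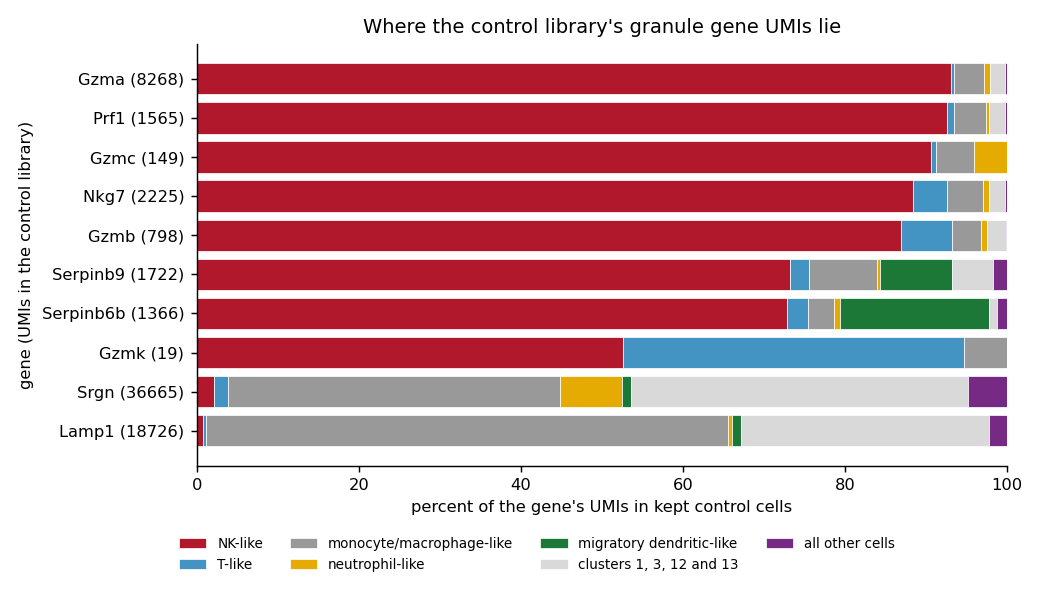
Share of each gene's control UMIs by cell class, in percent of the UMIs given in brackets. NK-like cells hold from 72.9% to 93.05% of the UMIs of 7 genes, and 2.16% and 0.822% of those of *Srgn* and *Lamp1*.

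Nearly every NK-like cell carried granzyme A transcripts. *Gzma* was found in 519 of 541 cells (95.9%, 93.9 to 97.4) at 5736 CPM (5608 to 5865), with a median of 12 UMIs per cell, quartiles of 6 and 19 and a highest cell of 82. *Nkg7*, whose protein takes part in granule release, was in 92.4% of cells at 1466 CPM. *Prf1* was in 81.9% at 1081 CPM (1026 to 1138). These 3 genes were therefore seen in most cells of the class. *Gzmb* was in 52.7% of cells (48.4 to 57.0) at 517 CPM (480 to 557), *Serpinb9* in 75.8% at 941 CPM and *Serpinb6b* in 66.5% at 743 CPM. *Srgn* was in 66.2% at 590 CPM and *Lamp1* in 23.1% at 115 CPM. *Gzmc* was the exception among granzymes with a level to read, in 25 cells (4.62%) at 101 CPM, and its 5 highest cells held 65.2% of its UMIs. For comparison, B-like cells, which should lack *Gzma*, had a *Gzma* UMI in 3 of 56 control cells (5.36%) at a median of 1596.5 UMIs per cell, against 2140 in NK-like cells.

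**Figure D2:**
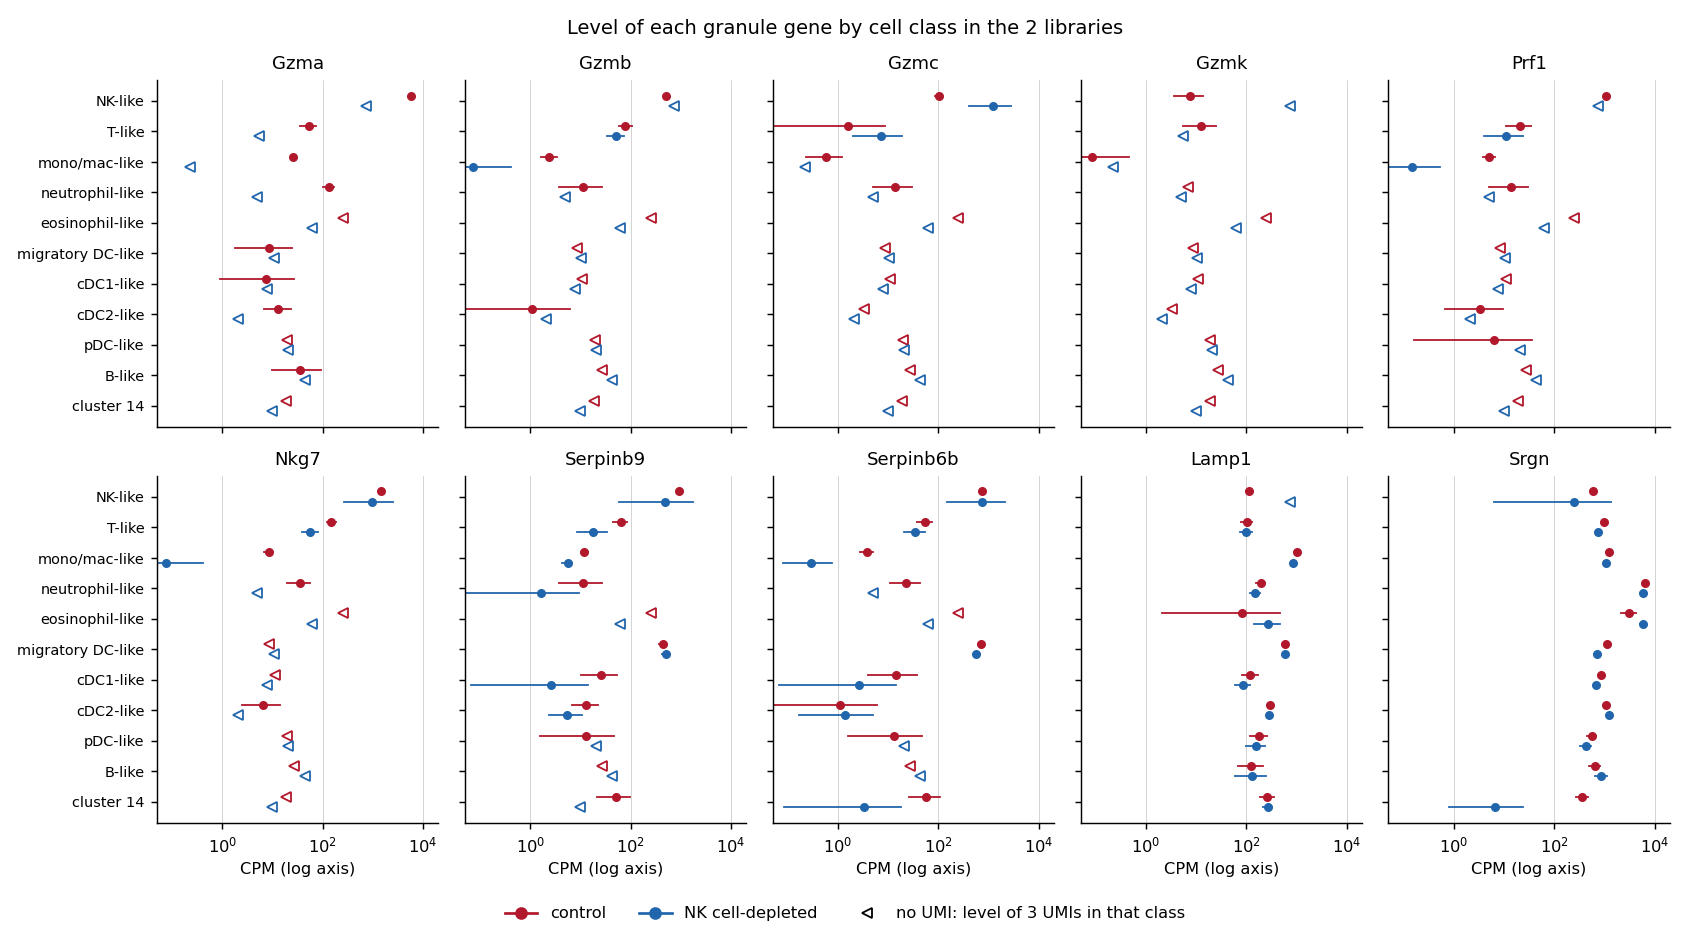
Level of each member in CPM (log axis) by class, control in red and NK cell-depleted in blue, with 95% Poisson intervals. Open triangles mark classes without a UMI, drawn at the level of 3 UMIs. The NK-like points of the NK cell-depleted library come from 1 cell. *Gzma* reads 5736 CPM in control NK-like cells, and no blue point exists for it in any class.

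In the NK cell-depleted library these transcripts were almost gone. Over all kept cells it held 0 UMIs of *Gzma* against 8268 in the control library, 8 of *Prf1* against 1565, 36 of *Nkg7* against 2225, 29 of *Gzmb* against 798 and 9 of *Gzmc* against 149. The serpins kept 281 of *Serpinb9* and 197 of *Serpinb6b*, against 1722 and 1366. *Lamp1* and *Srgn* had 16229 and 31806 UMIs, against 18726 and 36665. The single NK-like cell of this library (4090 UMIs) held 5 UMIs of *Gzmc*, 4 of *Nkg7*, 3 of *Serpinb6b*, 2 of *Serpinb9* and 1 of *Srgn*, and none of *Gzma*, *Gzmb* or *Prf1*. It held 6 UMIs of 2 of the 11 NK markers.

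Of 46 further genes of granule biology, 28 had at least 20 control UMIs, and 3 of these had over 50% of them in NK-like cells. Of all 11866 genes with as many UMIs, 1.65% reached that share. The median share in NK-like cells was 3.02% for the 28 genes, against 5.77% over all genes. *Serpinb9b*, another clade B serpin, had 95.1% of 164 UMIs there and ranked 6 of 11866. *Ctsw*, a cathepsin made by killer lymphocytes, had 84.3% of 658, and *Gzmm* 63.0% of 27. Genes that move and release granules were spread wider. *Rab27a*, which docks granules at the membrane, had 18.6% of 533 UMIs in NK-like cells, *Unc13d*, which primes them, 13.8% of 464, and *Stx11*, which acts in fusion, 9.05% of 718. *Chst11* and *Chst12*, sulfotransferases that modify the sugar chains of proteoglycans, had 16.96% of 342 and 8.42% of 582. None of the 10 movement genes, 3 lysosome membrane genes or 7 sugar chain genes measured passed 50%, and their list medians were 6.45%, 0.285% and 1.70%.

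Within NK-like cells the members did not move as 1 block. Cells with UMIs of mature NK markers only (108 cells, for example *Cx3cr1* and *S1pr5*) were set against cells with immature markers only (130 cells, for example *Cd27* and *Kit*). The contrast left out 291 cells with UMIs of both lists and 12 with neither. *Gzma* was at 2045 UMIs in mature and 1341 in immature cells, a ratio of levels of 2.99 (2.79 to 3.21). *Prf1* was 2.88-fold higher (2.45 to 3.38), *Gzmb* 2.58-fold (2.07 to 3.22) and *Nkg7* 1.84-fold (1.60 to 2.12). *Serpinb9* was 1.29-fold higher (1.08 to 1.54), whereas the intervals of *Serpinb6b* (1.004, 0.821 to 1.22) and *Srgn* (0.914, 0.720 to 1.15) included 1. *Gzmc* went the other way, with 1 UMI in mature and 43 in immature cells, a ratio of 0.0456 (0.00113 to 0.268). Those 43 UMIs lay in 9 cells, 18 of them in 1 cell. The 291 cells with both lists had 91 *Gzmc* UMIs (117 CPM), against 119 CPM in the immature cells. Thus 3 members were past 2-fold higher and 1 lower beyond counting error, where 4.3% of 4321 genes were higher and 3.45% lower. Mature cells were also shallower, with a median of 1652 UMIs per cell against 2620, and its part in these ratios was not tested.

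**Figure D3:**
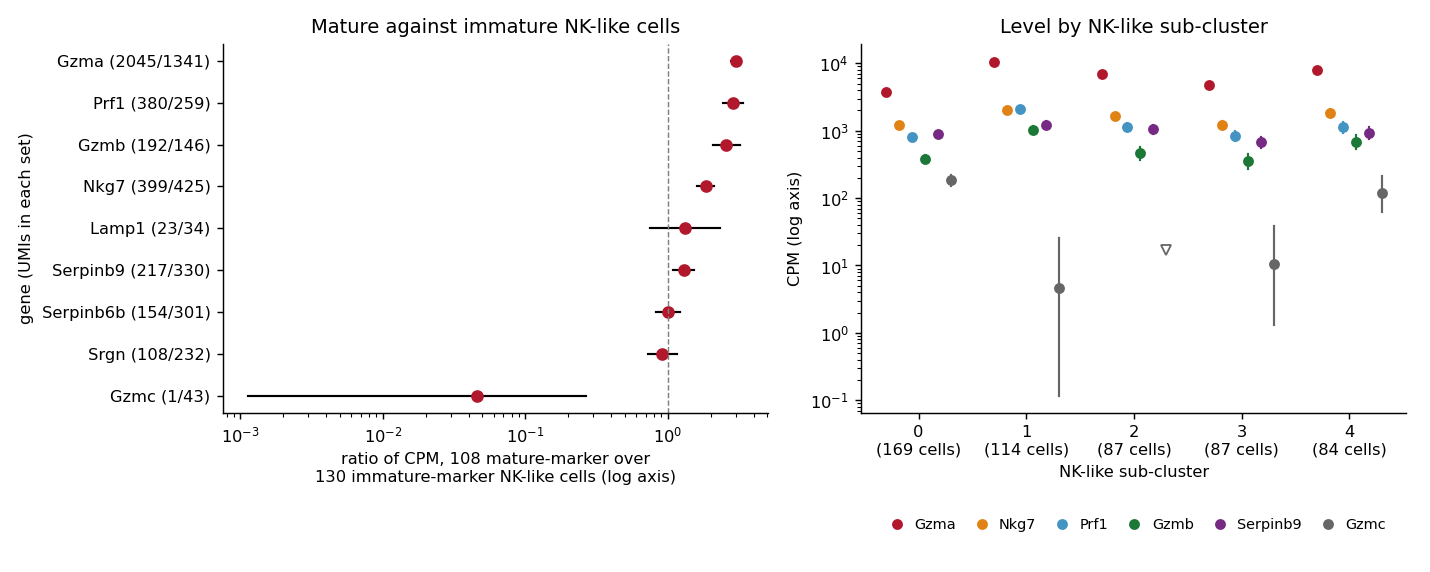
Left, ratio of levels between mature-marker and immature-marker NK-like cells with 95% intervals (log axis, UMIs of both sets in brackets). Right, CPM of 6 members in the 5 NK-like sub-clusters (log axis), with an open triangle at the level of 3 UMIs where there was no UMI. *Gzma*, *Prf1* and *Gzmb* lie at 2.58 to 2.99 and *Gzmc* at 0.0456 on the left, and *Gzmc* has its highest point, 183 CPM, in sub-cluster 0.

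Across the 5 sub-clusters, built without the members, *Gzma* was highest in the one with the most mature markers. *Gzmc* was highest in the one with the most immature markers, but did not follow these markers across the others. Sub-cluster 0 (169 cells, median 3413 UMIs per cell) was led by genes that include the proliferation genes *Pclaf*, *Top2a* and *Mki67* and the myeloid genes *Spp1* and *Il1b*, and it held all 5 Scrublet doublets of the class. It had *Gzma* at 3773 CPM, *Prf1* at 796, *Gzmb* at 381 and *Gzmc* at 183. Sub-cluster 1 (114 cells), led by *Cx3cr1*, *Cma1* and *S1pr5*, had *Gzma* at 10498 CPM, *Prf1* at 2071, *Gzmb* at 1038 and *Gzmc* at 4.6. Sub-clusters 2 and 3, with immature markers at 1627 and 2275 CPM (2558 in sub-cluster 0 and 354 in sub-cluster 1), had 0 and 2 UMIs of *Gzmc*. Sub-cluster 4, with a median of 1163 UMIs per cell, had mature markers at 1293 and immature markers at 1213 CPM. It had 12 UMIs of *Gzmc* (120 CPM, 62.2 to 210.1). Against all other NK-like cells, sub-cluster 0 had 8.34 times the level of *Gzmc* (4.86 to 15.4) and 0.495 times that of *Gzma* (0.472 to 0.520), while *Serpinb6b* did not differ beyond counting error (0.978, 0.861 to 1.11). Past 2-fold in sub-cluster 0 were 3.4% of 6873 genes higher and 3.54% lower. Sub-cluster 1 had 2.18 times the *Gzma* level of the others (2.08 to 2.29), 2.33 times that of *Prf1* and 2.49 times that of *Gzmb*, with 3.32% of genes past 2-fold higher and 3.04% lower. In the 23 cells with at least 2 cycling markers, *Gzmc* had 71 UMIs in 5 cells, 31 of them in 1 cell, against 64 in the 518 others. This level was 9.12 times as high (6.41 to 12.99), with 4.9% of 6873 genes higher and 5.75% lower, and *Gzma* was at 0.634 of the level in the others. The 23 cells were also deeper, with a median of 6088 UMIs per cell against 2103. The 8 cells with at least 2 markers of ILC1 (tissue-resident innate lymphoid cells related to NK cells) had 7.31 times the *Gzmc* level of the 474 cells with none, and 0.274 times the *Gzma* level. As *Gzmc* rests on 25 cells, these ratios rest on few cells with many UMIs each.

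When every NK-like cell was thinned to 2000 UMIs, which left out 238 shallower cells, *Gzma* was seen in 91.1% of 303 cells, *Nkg7* in 88.1%, *Prf1* in 71.6% and *Gzmb* in 39.9%. All 4 were seen together in 87 cells (28.7%), 3 of them in 127 cells, and none in 3 cells. Cells with a *Gzmb* UMI carried a mean of 13.3 *Gzma* UMIs, and cells without it 7.78. The 18 cells with *Gzmc* carried 2.33 *Gzma* UMIs on average, and the 285 without it 10.4. Mean *Gzma* was thus higher in cells with *Gzmb* and lower in cells with *Gzmc*.

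Outside NK-like cells, *Gzma* UMIs of the control library were few and clustered in few cells. They numbered 575 in 92 of 4751 cells, and 31 cells with at least 3 of them held 509. Of these 31 cells, 27 also held at least 2 NK markers, 15 were called doublets by Scrublet, and their median depth was 7617 UMIs. Per 100 *Gzma* UMIs they held 15.1 of *Prf1*, 10.6 of *Gzmb*, 25.9 of *Nkg7*, 16.3 of *Serpinb9* and 8.84 of *Serpinb6b*, and NK-like cells held 18.8, 9.02, 25.6, 16.4 and 12.9. The other 61 cells had 1 or 2 *Gzma* UMIs each, 66 in all, and 6 of them held 2 or more NK markers. In all, the 103 cells outside the class with at least 2 NK markers held 85.2% of the *Gzma* UMIs found outside it, 82.6% of *Prf1*, 62.9% of *Nkg7*, 43.3% of *Gzmb*, 23.0% of *Serpinb9* and 19.2% of *Serpinb6b*. More of the outside UMIs of *Gzmb* and the serpins than of *Gzma* thus lay in cells with fewer than 2 NK markers.

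**Figure D4:**
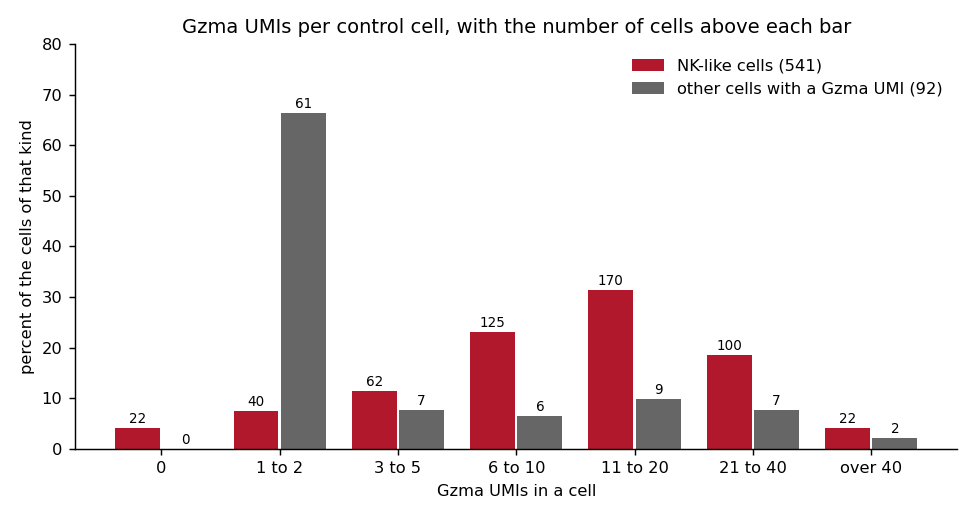
*Gzma* UMIs per control cell, as percent of 541 NK-like cells and of 92 other cells with a *Gzma* UMI, with the number of cells above each bar. Most other cells have 1 or 2 UMIs, and 31 have 3 or more.

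T-like cells (288 control, 221 NK cell-depleted) carried low levels of several members. The class also holds innate cells: 29 control and 33 NK cell-depleted cells had ILC2 markers (group 2 innate lymphoid cells) and no UMI of *Cd3* genes or *Trac*. *Nkg7* had 94 UMIs in control and 31 in NK cell-depleted T-like cells, 149 and 55.9 CPM, a ratio of 2.66 (1.75 to 4.12). *Serpinb9* had 40 and 10 UMIs, a ratio of 3.50 (1.72 to 7.86). *Gzma* had 33 UMIs and 0, at least 9.63-fold higher, with 23 of the 33 UMIs in 3 cells and none in a cell with 2 or more NK markers. It was seen in 12 of 288 control T-like cells (4.17%, median 2078 UMIs per cell), not above the 5.36% of B-like cells (3 of 56). Type 1 conventional dendritic-like cells had it in 2 of 36. The share was lower in larger classes, with 44 of 2130 monocyte/macrophage-like and 5 of 364 neutrophil-like cells. *Gzma* is not read as a level of the whole T-like class. Thus *Nkg7*, *Serpinb9* and *Gzma*, 3 of the 7 members with at least 20 UMIs, were past 2-fold higher. Of 6585 genes, 2.73% were higher and 2.25% lower. *Gzmb* (50 and 28 UMIs, 1.56, 0.966 to 2.58) and *Serpinb6b* (34 and 19, 1.57, 0.869 to 2.91) had intervals that included 1, and so had *Lamp1* (64 and 55, 1.02, 0.700 to 1.49). *Srgn* was 1.33-fold higher in control (1.17 to 1.51). NK markers summed to 229 UMIs in control and 217 in NK cell-depleted T-like cells, and *Ncr1*, *Klra4*, *Klra7*, *Klra8* and *Klra9* were at 0 in the latter. T-like cells with at least 2 NK markers numbered 21 in control and 4 in the other library. The 21 held 21 of the 94 *Nkg7*, 12 of the 34 *Serpinb6b* and 7 of the 40 *Serpinb9* UMIs. The 4 held 5 of the 31, 1 of the 19 and 0 of the 10. With at least 1000 UMIs and at most 5% mitochondrial UMIs required of a cell, 113 and 72 T-like cells remained and 0 members were called. *Gzma* (4 and 0 UMIs) and *Serpinb9* (6 and 3) were then under the minimum of 20 UMIs, and *Nkg7* (25 and 9) had a log2 ratio of 0.93 (-0.16 to 2.27), whose interval included 0.

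Among T-like cells split by markers, CD8 T-like cells (38 control, 23 NK cell-depleted) held 22 of the 33 *Gzma* UMIs in 5 cells, and 13 of them in 1 cell. They had 48 and 19 UMIs of *Nkg7*, a ratio of 1.84 (1.06 to 3.31), and 15 and 0 UMIs of *Gzmb*, 12 of them in 1 cell. *Prf1* and *Serpinb6b* had 5 and 4 UMIs each, a ratio of 0.910 (0.196 to 4.59). *Gzmk* had 6 UMIs in 3 control CD8 T-like cells and 0 in the other library. Regulatory T-like cells (31 and 20 cells), which carry *Foxp3*, had no *Gzma* in either library, yet held 15 *Gzmb* UMIs in 7 control cells and 22 in 3 NK cell-depleted cells, of which 1 held 20. That ratio was 0.586 (0.283 to 1.18). *Srgn* was 1.75-fold higher in control regulatory T-like cells (1.28 to 2.39), with 130 and 64 UMIs. In the NK cell-depleted library, 22 of the 29 *Gzmb* UMIs lay in regulatory T-like cells, 20 of them in 1 cell. Of the control T-like *Gzmb* UMIs, 10 of 50 lay in 2 cells with at least 2 mast cell or basophil markers, of which the NK cell-depleted library had none. Without them the log2 ratio of T-like *Gzmb* was 0.33 in place of 0.63. With at least 1000 UMIs and at most 5% mitochondrial UMIs per cell, *Gzmb* had 24 UMIs in 113 control T-like cells. It had 23 in 72 NK cell-depleted ones.

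In monocyte/macrophage-like cells (2130 control, 2320 NK cell-depleted), 6 of 8 members were past 2-fold higher in control, where 3.06% of 11244 genes were higher and 0.64% lower. *Gzma* had 309 UMIs and 0, at least 116-fold higher, *Nkg7* 100 and 1, *Prf1* 61 and 2 (34.4, 9.11 to 290), *Gzmb* 29 and 1, and *Serpinb6b* 45 and 4 (12.7, 4.62 to 48.5). *Serpinb9* had 145 and 75 UMIs, a ratio of 2.18 (1.64 to 2.92). The 33 control cells of this class with at least 2 NK markers held 284 of the 309 *Gzma* UMIs, 83 of the 100 of *Nkg7*, 55 of the 61 of *Prf1*, 25 of the 29 of *Gzmb*, 35 of the 45 of *Serpinb6b* and 47 of the 145 of *Serpinb9*. Without cells of this kind in both libraries, *Gzma* stayed past 2-fold, while *Nkg7*, *Prf1*, *Gzmb* and *Serpinb6b* had under 20 UMIs and could no longer be called. The log2 ratio of *Serpinb9* was then 0.60 in place of 1.12. Neutrophil-like cells (364 and 456) had 57 and 0 UMIs of *Gzma*, at least 26.5-fold higher (2.35% of 4634 genes were higher and 1.79% lower), and 55 of the 57 lay in 3 cells with at least 2 NK markers, without which *Gzma* was under the minimum of 20 UMIs in this class. The unnamed clusters 1 and 3, led by *Gpnmb* and by *Dcstamp*, had 39 and 105 control UMIs of *Gzma* and 0 in the other library, at least 7.88-fold and 19.2-fold higher (2.4% of 8903 and 1.1% of 9832 genes were higher, 0.91% and 1.31% lower). In cluster 1 *Serpinb9* also differed (27 and 5 UMIs, 3.27, 1.24 to 10.9), and in cluster 3 *Nkg7* (32 and 0, at least 5.85-fold). Cells with at least 2 NK markers held 36 of the 39 *Gzma* and 10 of the 27 *Serpinb9* UMIs of cluster 1, and 100 of the 105 *Gzma* and 31 of the 32 *Nkg7* UMIs of cluster 3.

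The inhibitors *Serpinb9* and *Serpinb6b* had a second site of high levels, migratory dendritic-like cells, which carry *Ccr7* and *Fscn1* and bring antigen to lymph nodes. *Serpinb9* was at 432 CPM (367 to 507) in 63 control cells and at 506 CPM (427 to 596) in 51 NK cell-depleted cells, and *Serpinb6b* at 709 (624 to 803) and 569 CPM (485 to 664). No UMI of *Gzmb*, *Prf1* or *Nkg7* was found in these cells in either library, which at 3 UMIs allows up to 8.48 CPM in control, and *Gzma* had 3 control UMIs. *Serpinb9* was thus high in cells in which *Gzmb*, whose protein it inhibits, was not detectable at this depth. The ratio between libraries was 0.854 for *Serpinb9* (0.676 to 1.08) and 1.25 for *Serpinb6b* (1.02 to 1.53), so 0 of the 4 members with at least 20 UMIs were past 2-fold in this class, where 2.06% of 3982 genes were higher and 3.99% lower. After thinning to 2000 UMIs, *Serpinb9* was seen in 38.3% of control and 56.5% of NK cell-depleted migratory dendritic-like cells, and *Serpinb6b* in 45.0% and 39.1%. Migratory dendritic-like cells held 8.89% and 18.4% of the control UMIs of *Serpinb9* and *Serpinb6b*.

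Among the named classes, *Srgn* and *Lamp1* had their highest levels in myeloid cells. *Srgn* was at 6449 CPM (6213 to 6692) in control and 5984 (5791 to 6182) in NK cell-depleted neutrophil-like cells, and at 3086 (2173 to 4254) and 5828 (5167 to 6549) in eosinophil-like cells, of which control had 15 and the other library 71. Cluster 17, led by *Gm5483*, *Hcar2* and *Cxcl3*, had 4683 and 5843 CPM. Monocyte/macrophage-like cells had 1248 and 1067, T-like cells 994 and 749, and NK-like cells 590 CPM (550 to 633). Within T-like cells, *Srgn* was at 1593 CPM (1331 to 1892) in control regulatory T-like cells and at 1354 (1070 to 1690) in control cells with ILC2 markers, so these subsets were not below monocyte/macrophage-like cells. NK-like and plasmacytoid dendritic-like cells (558 CPM, 447 to 688) did not differ beyond counting error in the control library. *Lamp1* was at 1002 CPM (984 to 1020) in control monocyte/macrophage-like cells and 852 in the other library, at 593 and 594 in migratory dendritic-like cells, at 193 and 150 in neutrophil-like cells, and at 115 in NK-like and 101 in T-like control cells, whose intervals overlapped.

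Between the libraries, *Srgn* differed by less than 2-fold in the named classes compared. Eosinophil-like and plasmacytoid dendritic-like cells were too few to be compared, though the intervals given above for eosinophil-like cells did not overlap. *Srgn* was 1.60-fold higher in control migratory dendritic-like cells (1.34 to 1.90), 1.17-fold in monocyte/macrophage-like cells (1.14 to 1.197) and 1.08-fold in neutrophil-like cells (1.03 to 1.13). It was lower in type 2 conventional dendritic-like cells (0.864, 0.798 to 0.934). Inside the 6 monocyte/macrophage-like clusters the ratio ran from 0.787 to 1.15 and beyond counting error it was over 1 in cluster 5 and under 1 in clusters 2 and 6. With every cluster given the same weight, the log2 ratio of that class turned from 0.23 to -0.066, so its direction depended on how the clusters were weighted. *Lamp1* was 1.18-fold higher in control monocyte/macrophage-like cells (1.15 to 1.21), and over 1 in 5 of the 6 clusters, from 1.07 to 1.27. Of these, the interval of cluster 5 included 1 (1.07, 0.975 to 1.17), and so did that of cluster 11 (0.916, 0.754 to 1.11). Neither gene was past 2-fold in any named class compared. No member with enough UMIs was past 2-fold beyond counting error in B-like cells (background 2.42% higher and 4.92% lower), type 1 (1.86% and 2.86%) or type 2 conventional dendritic-like cells (1.37% and 1.85%; *Serpinb9* 12 and 8 UMIs, 2.37, 0.892 to 6.70), nor in cluster 12 (1.38% and 1.77%), cluster 13 (3.83% and 2.18%) or cluster 17 (4.44% and 5.91%). In the unnamed cluster 14, which had almost no *Ptprc* (the gene of CD45; 43.8 and 19.6 CPM), *Srgn* had 58 UMIs in control and 2 in the other library, a ratio of 55.5 (14.7 to 469; 2.31% of 3115 genes were higher and 11.1% lower), and 43 of the 58 came from 2 cells with at least 2 mast cell or basophil markers.

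**Figure D5:**
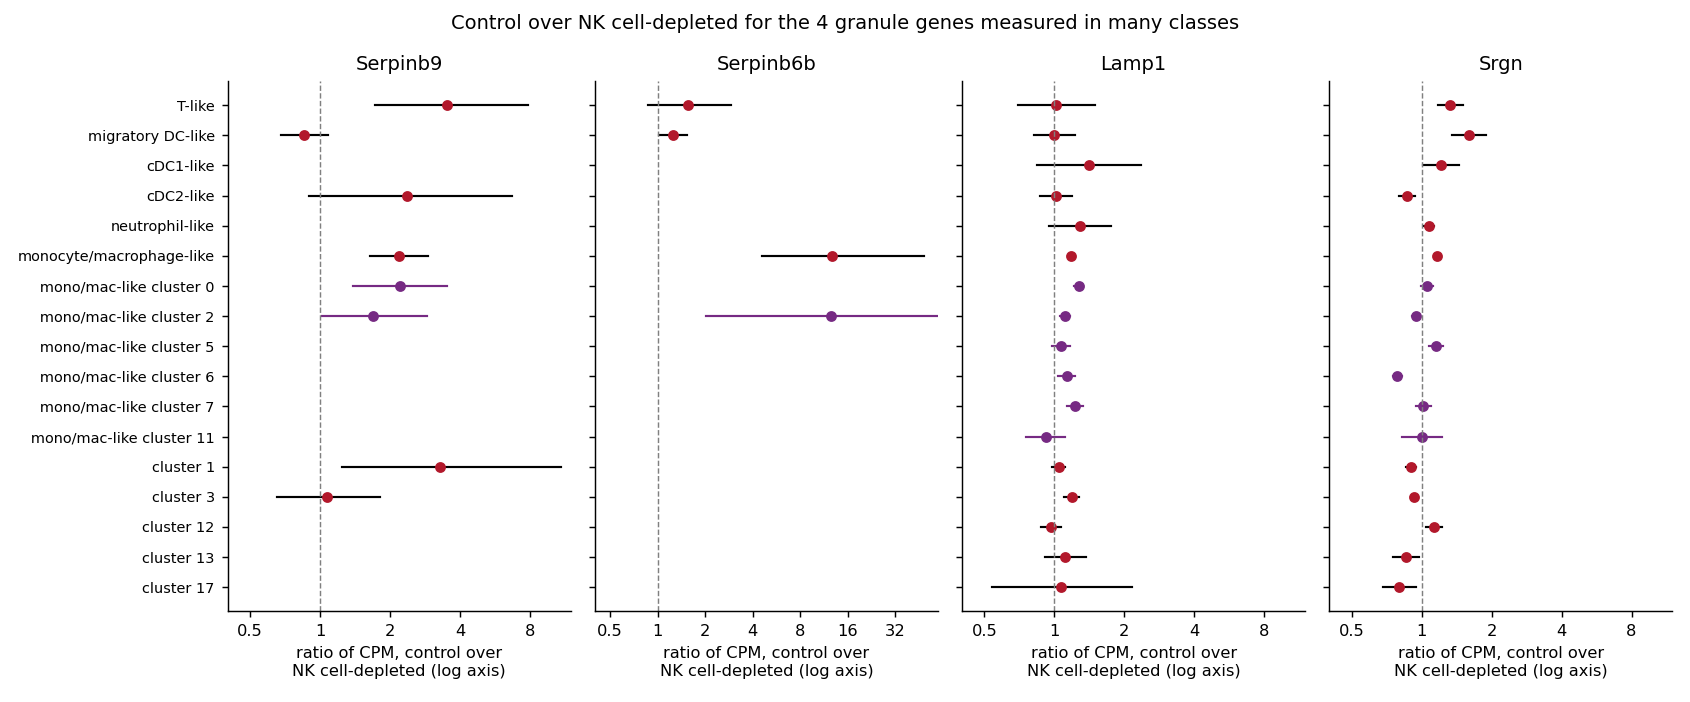
Ratio of CPM, control over NK cell-depleted, with 95% intervals (log axis) for 4 members in the classes with at least 20 UMIs, and in purple within the monocyte/macrophage-like clusters. *Srgn* runs from 0.787 to 1.15 within these clusters, and *Serpinb9* lies at 3.50 in T-like and 0.854 in migratory dendritic-like cells.

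Of the further granule genes, few were past 2-fold between the libraries. In T-like cells these were *Cd63*, a lysosome membrane protein (16 and 4 UMIs, 3.50-fold), and *Ctsw* (55 and 24, 2.01-fold), 2 higher and 0 lower of 21, beside 2.73% and 2.25% of all genes. In monocyte/macrophage-like cells *Ctsw* alone (31 and 2 UMIs, 17.5-fold) of 26 genes was past it, beside 3.06% of all genes higher, and in neutrophil-like cells 0 of 19, beside 2.35% higher and 1.79% lower. *Serpinb1a*, an inhibitor of neutrophil proteases, was lower in control type 2 conventional dendritic-like cells (ratio 0.405) and higher in control cluster 1 (4.24). In cluster 14 it had 34 control UMIs and 0 in the other library, and all 34 lay in the 2 cells with mast cell or basophil markers. *Arl8b*, which moves lysosomes along microtubules, was lower in control migratory dendritic-like cells (0.437). *Xylt1*, which starts proteoglycan sugar chains, was lower in control type 2 conventional dendritic-like cells (0.355). Lower in control were also *Csgalnact2* in cluster 13 (0.334), *Lamp2* in cluster 14 (0.331) and *Ctsc*, the protease that activates granzymes, in B-like cells (0.398). Of all genes, 3.99% were past 2-fold lower in migratory and 1.85% in type 2 conventional dendritic-like cells. In clusters 13 and 14 the shares lower were 2.18% and 11.1%, and in B-like cells 4.92%. In cluster 1, 2.4% were higher.

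Levels were correlated across the classes and clusters with at least 30 cells in a library, 28 points in all. NK-like cells gave a control point only (541 cells against 1), and eosinophil-like cells an NK cell-depleted point only (15 against 71). How far the correlations rest on the NK-like point was not tested. The gene most like *Gzma* was *Klre1*, an NK cell receptor (Pearson r = 0.884 of log2(CPM + 1)), and then *Klra7* (0.872) and *Klrc2* (0.834). *Gzmb* was most like *Ctsw* (0.980), *Nkg7* (0.978) and *Sytl3* (0.971), and *Gzmc* like *Sytl3* (0.907), *Klrc1* (0.904) and *Prf1* (0.900). *Prf1* was most like *Nkg7* (0.973), *Eomes* (0.966) and *Klrc1* (0.955), and *Nkg7* like *Gzmb* (0.978), *Ctsw* (0.975) and *Prf1* (0.973). *Serpinb9* was most like *Ccl5* (0.912), *Serpinb6b* (0.896) and *AW112010* (0.820), and *Serpinb6b* like *Serpinb9* (0.896), *Ccl5* (0.896) and *Car2* (0.794). *Lamp1* was most like *Lgmn*, a lysosomal protease (0.888), *Cyfip1* (0.886) and *Lrp1* (0.858), and *Srgn* like *Pet100* (0.912), *Snx20* (0.885) and *Apbb1ip* (0.879). *Gzmk* had too few UMIs. The points share libraries and depth, so these values are descriptive.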

How the data were processed

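Counts of single cells were analysed from 1 control and 1 NK cell-depleted library. The authors deposited UMI count matrices made with Cell Ranger (3.0.2 per the file headers, build mm10 per the labels). Their table of normalized values was not used here. The cell filter stated for the study was applied. Values of log2(CPM + 1) of 2000 variable genes, with the members and all granule lists left out, gave 15 principal components and 20 neighbors for Leiden clustering at resolution 1 (scanpy 1.11.5, leidenalg 0.10.2). A cluster took the name of the list with most markers among its 50 leading genes, with at least 3 markers raised; otherwise it stayed unnamed, so class names were rebuilt here and may differ from the study's. Scrublet called 41 control (0.775%) and 31 NK cell-depleted cells (0.688%), which were kept, and such low shares leave doublets in the data.

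UMIs were summed per class and library. A member was called between libraries with at least 20 UMIs, a ratio past 2-fold and an interval that excluded 1. A fold against 0 used 3 UMIs per library as the floor, and log2 ratios had 0.5 UMI added. The ratio and its interval were tried on simulated Poisson counts only. UMIs clumped in few cells, as in these data, were not simulated, so the trial says nothing about them. The members, lists and tests were chosen with earlier results of these data known. All 10 members were described. Of the other lists, the 8 genes with the highest NK-like share were named, up to 5 past 2-fold in the classes compared, and the 3 genes most alike to each member. Conventional and plasmacytoid dendritic-like classes came from sub-clusters of 1 mixed cluster. Alternatives changed the cell filter, doublets, clustering, depth, free RNA, the highest cells and the minimum of UMIs.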

Additional observations from a re-analysis of the deposited data

Results flagged for a closer look

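The ratio of *Srgn* between the libraries (control over NK cell-depleted) differed among cell classes, though the difference between classes was not tested. It was 1.33 in T-like, 1.60 in migratory dendritic-like, 1.17 in monocyte/macrophage-like, 1.08 in neutrophil-like and 1.21 in type 1 conventional dendritic-like cells (1.01 to 1.45), and 0.864 in type 2 conventional dendritic-like cells.

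Cells left out by the filter also held transcripts of killer lymphocytes in the control library. The 823 control cells left out had 321 UMIs of *Gzma* in 40 cells, 67 of *Prf1*, 29 of *Gzmb* and 107 of *Nkg7*. The 1030 NK cell-depleted cells left out had 0 of *Gzma* and of *Gzmb*, 3 of *Prf1* and 11 of *Nkg7*.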

How the results depend on the processing

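The count of 7 members with most control UMIs in NK-like cells was the same under every alternative run except that with no minimum of UMIs, which gave 8. *Gzma* held 92.2% to 98.8% there and *Gzmc* 77.0% to 97.3%. Of 100 shares under alternatives, 60 stayed within the interval, and 40 did not. *Gzmk*, with too few UMIs to be counted, ran from 47.4% to 75%. For the other granule genes the count was 3, and 5 with no minimum of UMIs. In T-like cells 3 members were past 2-fold, and 0 with the stricter cell filter, which left 2 of the 3 under the minimum of UMIs. In monocyte/macrophage-like cells the count of 6 became 0 without cells holding 2 or more markers of each of 2 classes, and 1 without cells with NK markers, in both cases mostly because members fell under the minimum of UMIs. In neutrophil-like cells the count of 1 became 0 without Scrublet doublets, without the mixed cells, with cells called one by one, without the 5 highest cells or without cells with NK markers, and 6 with no minimum. *Srgn* in monocyte/macrophage-like cells reversed to a log2 ratio of -0.066 with equal cluster weights. Of 297 log2 ratios under alternatives, 276 stayed within the interval, 20 did not and 1 reversed. Only ratios whose reported interval excluded 0 could be counted as reversed. Among the rest, the sign changed for T-like *Gzmb* (-0.431 to 3.91) and T-like *Lamp1* (-0.240 to 0.305). It also changed for *Lamp1* in migratory (-0.0888 to 0.0976) and type 2 conventional dendritic-like cells (-0.142 to 0.372). Leaving out cells with NK or mast cell markers, and subtracting the level of cluster 14 (in place of the melanoma-like cluster, which was not found), were chosen after seeing the data. The subtraction was made not to fall below 0 in a class and to leave out mast cell marker cells after a trial gave shares over 100%. No paired analysis was possible because each group had 1 library. Depth limits *Gzmk* and all T subsets.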

Other observations

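Among control cells 8, and among NK cell-depleted cells 0, held at least 2 mast cell or basophil markers. They held 104 UMIs of *Srgn* (4890 CPM), 10 of *Gzmb*, 6 of *Gzmc* and 0 of *Gzma* and *Prf1*. In cluster 14, apart from the 2 such cells, control cells had 15 UMIs of *Srgn* (97.8 CPM), 8 of *Serpinb9* and 9 of *Serpinb6b*.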
